A study of Homo sapiens with 9 samples.

Results

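The DNA replication machinery was followed gene by gene in HUCCT-1 cells, a human intrahepatic cholangiocarcinoma line, after the transcriptional co-activators YAP and TAZ had been silenced together. The 49 genes were taken by name, as the known subunits of the complexes that license, open and copy chromosomal DNA, and each of the 49 has a probe set among the 37201 genes tested. They fall into 9 origin recognition and licensing genes, 9 MCM genes, 7 genes for CDC45, GINS and the CDC7 kinase, 12 polymerase genes, 6 genes for the clamp PCNA and its loader RFC, 3 RPA genes and 3 genes for flap removal and ligation. The rule uses names and no measured value, although the set was proposed with earlier results of these data known. Cells received scrambled siRNA (3 arrays), YAP/TAZ siRNA combination 1 (YAP siRNA 1 with TAZ siRNA 2, 3 arrays) or combination 2 (YAP siRNA 2 with TAZ siRNA 3, 3 arrays), at 40 nM siRNA in total for the silenced groups, and RNA was taken 24 h after transfection. The sources used here do not say which molecule TAZ siRNA 3 is. The study describes its arrays as biological samples, while the labels number them without naming separate cultures, so p-values measure the spread between these arrays, which may in part be technical. All values come from 1 cell line.

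Replication starts at origins marked by the origin recognition complex (ORC1 to ORC6), to which CDC6 and CDT1 bring the ring of MCM2 to MCM7. In S phase the CDC7 kinase with its activator DBF4 phosphorylates the ring, and CDC45 and the 4 GINS subunits join it to form the active helicase. Polymerase alpha with its primase then starts each strand, RFC loads the sliding clamp PCNA, polymerases delta and epsilon extend the strands, RPA coats the single-stranded DNA, and FEN1, DNA2 and the ligase LIG1 finish the lagging strand. Many of these genes are transcribed under E2F control at the entry into S phase, and MCM2 and PCNA are used in tumors, cholangiocarcinoma included, as markers of dividing cells.

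Each array measures RNA with 1 probe set per gene, and the values are log2 signals, so a difference of 1 is a factor of 2 before the compression that arrays show. The array medians lay between 5.835 and 5.839. The silencing itself was visible, with log2 fold changes of −2.22 (combination 1) and −2.25 (combination 2) for YAP1 and of −1.34 and −1.39 for WWTR1, the gene of TAZ (largest adjusted p = 3.43e-05, limma), and no overlap with scrambled siRNA. Of the 8 biliary and epithelial marker genes the scrambled means ran from 6.56 to 11.7, against 4.11 to 6.51 for 4 hepatocyte markers, 4.06 to 7.04 for 5 fibroblast markers and 4.29 to 5.98 for 4 of 5 listed leukocyte markers. The replication genes were well expressed, with a median scrambled log2 signal of 8.39 against 5.83 over all genes, and 47 of the 49, from POLE2 at the 76.95 percentile to PCNA at the 99.3 percentile, stood high among all genes. RPA3 was lowest, at the 54.0 percentile.

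Most replication genes had lower signals after combination 1. Of the 49, 46 had a negative log2 fold change, 30 were lower in all 3 combination 1 arrays than in all 3 scrambled arrays, and 1, POLD4, was higher in all 3. Of all genes tested 10.1% lay below in this way and 5870 of 37201 above, and of the 18215 protein-coding genes 12% lay below. At an unadjusted p under 0.05, 23 of the 49 were lower and 0 higher. Of all genes, 7.65% were lower and 2985 of 37201 higher. After Benjamini-Hochberg adjustment over all genes with limma, 3 of the 49 passed the threshold of 0.05, all of them lower, against 0.833% of all genes. The median log2 fold change of the 49 was −0.16, beside 0.017 over all genes and 0.029 over protein-coding genes, so the typical change was small. In a fit of protein-coding genes only, 11 of the 49 passed, all lower, where 1095 of 18215 genes (6.01%) passed in either direction.

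**Figure D1:**
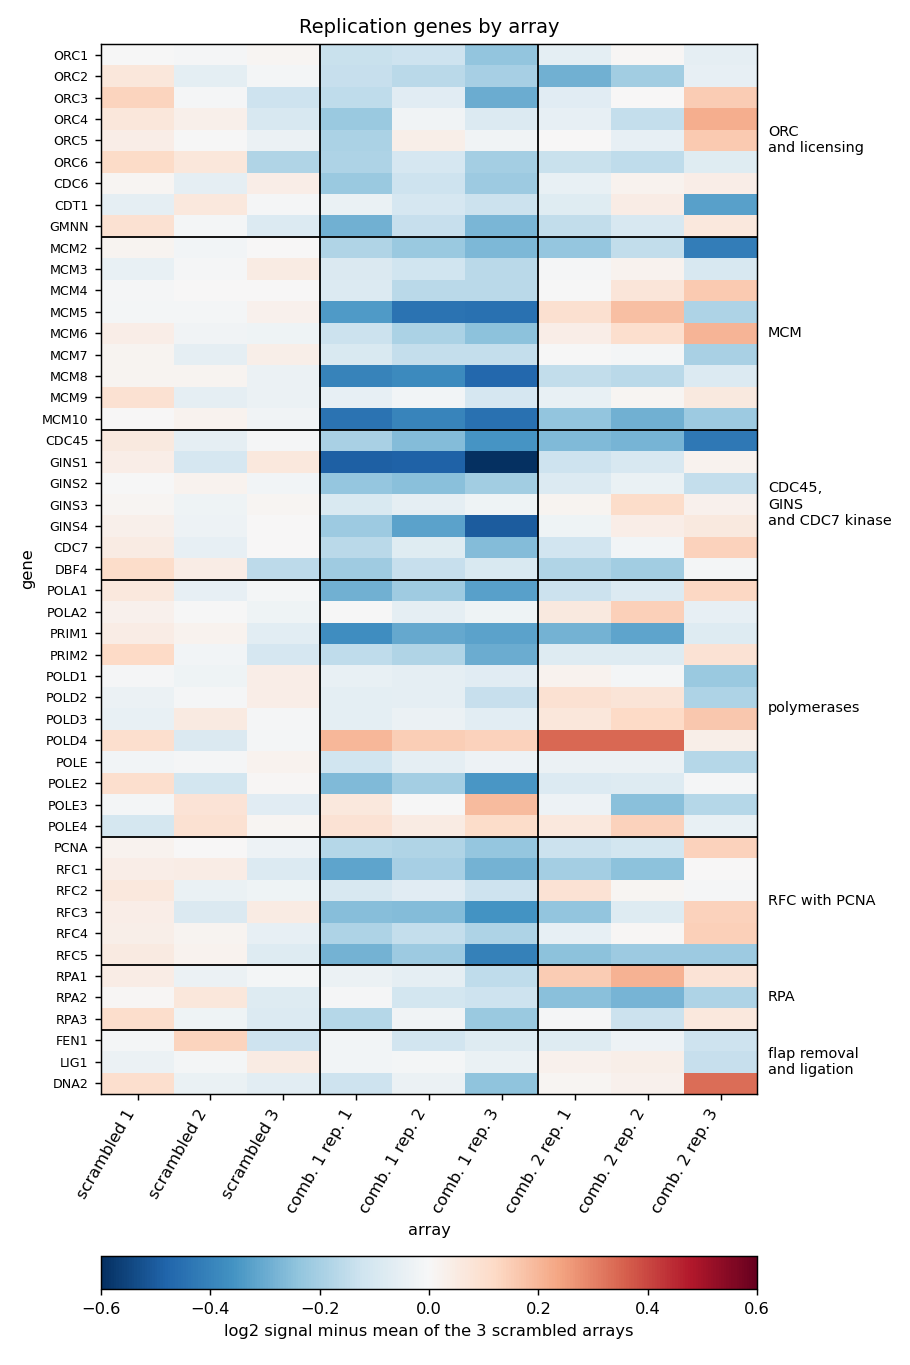
Log2 signal of the 49 replication genes (rows, grouped by complex) on the 9 arrays (columns), as the difference from the mean of the 3 scrambled arrays. Blue is lower and red higher. The combination 1 columns are blue for 46 of 49 genes in each array, while the combination 2 columns are mixed and the third of them differs from the other two.

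The 3 genes called lower with combination 1 were MCM10, MCM8 and GINS1. MCM10 (Entrez gene 55388), which helps to activate the MCM helicase at origins, had log2 signals of 8.79, 8.81 and 8.77 with scrambled siRNA, 8.34, 8.39 and 8.34 with combination 1 and 8.55, 8.50 and 8.57 with combination 2. The 3 groups did not overlap, with combination 2 lying between the other groups. Its log2 fold change with combination 1 was −0.43 (standard error 0.048, adjusted p = 0.00389, limma), a signal 25.8% lower, and with combination 2 it was −0.25 (95% interval −0.36 to −0.14, adjusted p = 0.0721).

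MCM8 (Entrez gene 84515), which with MCM9 forms a separate helicase known for its part in homologous recombination, had log2 signals of 9.91, 9.91 and 9.86 with scrambled siRNA, 9.49, 9.51 and 9.42 with combination 1 and 9.74, 9.73 and 9.81 with combination 2. Again the groups were in the same order without overlap. Against scrambled siRNA the log2 fold change came to −0.42 for combination 1 (standard error 0.052, adjusted p = 0.00665, limma) and −0.13 for combination 2 (adjusted p = 0.331). The partner MCM9 had −0.055 and 0.0081, and its signal in scrambled cells, at the 67.1 percentile, was the second lowest of the 49.

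GINS1 (Entrez gene 9837), a subunit of the GINS complex, had log2 signals of 9.41, 9.28 and 9.44 with scrambled siRNA, 8.88, 8.89 and 8.76 with combination 1 and 9.25, 9.28 and 9.40 with combination 2. Here the combination 1 arrays lay below all 6 others, and the combination 2 arrays lay within or just below the scrambled range. For combination 1 the log2 fold change came to −0.53 (standard error 0.070, adjusted p = 0.00888, limma), the largest of the 49 in size and a signal 30.8% lower. With combination 2 it was −0.066 (95% interval −0.23 to 0.093, adjusted p = 0.730). GINS1 was called in 8 of the 9 fits that left out an array and MCM10 and MCM8 in all 9. Without scrambled replicate 1 the GINS1 call was lost.

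**Figure D2:**
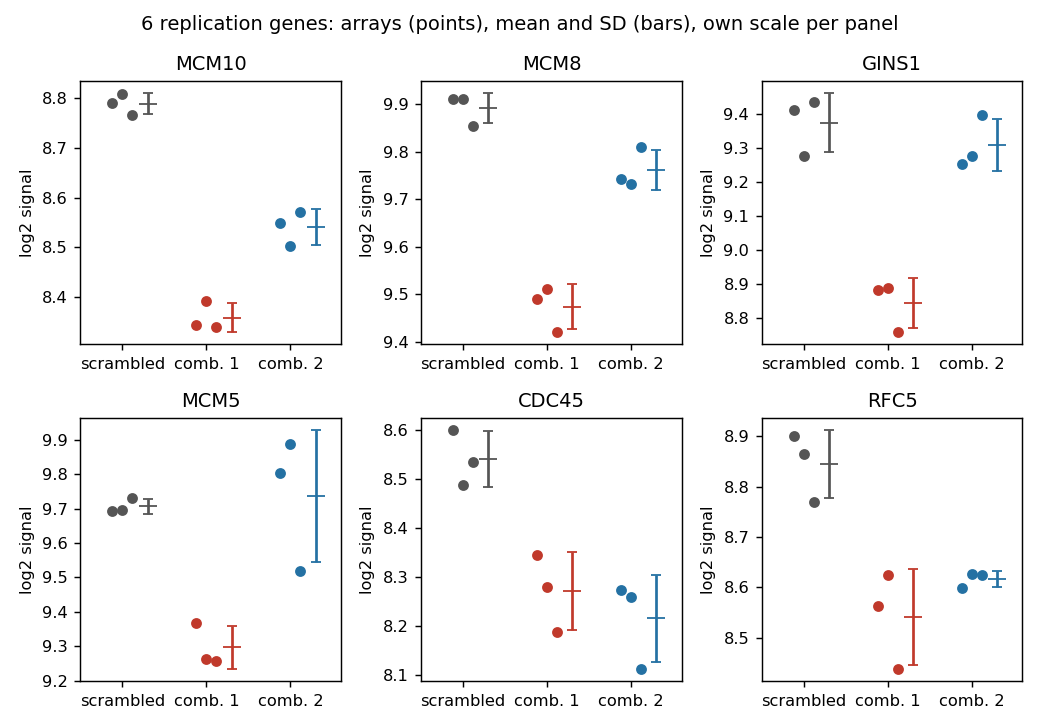
Log2 signal (vertical axis, own range in each panel) of 6 replication genes in the 3 groups. Points are arrays in replicate order, and the bar beside them is the mean with the SD (n = 3). MCM10, MCM8 and GINS1 were called lower with combination 1. MCM5, CDC45 and RFC5 were below in all 3 combination 1 arrays without passing the test.

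The upstream sequences of these 3 genes are shown because they passed the test, as the 250 bases before the start of each gene in RefSeq (GRCh38.p14, plus strand). Capitals mark CCAAT, read on the other strand as ATTGG, and GGAATG, the letters bound by the TEAD factors through which YAP and TAZ reach DNA. MCM10 is at chr10:13161308-13161557, MCM8 at chr20:5950402-5950651 and GINS1 at chr20:25407423-25407672.
MCM10: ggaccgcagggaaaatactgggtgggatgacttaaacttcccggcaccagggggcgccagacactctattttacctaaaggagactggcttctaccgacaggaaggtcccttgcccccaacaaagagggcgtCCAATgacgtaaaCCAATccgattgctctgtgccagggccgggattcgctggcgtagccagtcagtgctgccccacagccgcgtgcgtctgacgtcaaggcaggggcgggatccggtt
MCM8: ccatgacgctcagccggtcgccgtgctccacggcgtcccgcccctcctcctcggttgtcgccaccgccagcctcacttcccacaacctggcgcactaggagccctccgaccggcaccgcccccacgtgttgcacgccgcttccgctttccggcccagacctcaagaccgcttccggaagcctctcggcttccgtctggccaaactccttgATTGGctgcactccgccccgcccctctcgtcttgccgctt
GINS1: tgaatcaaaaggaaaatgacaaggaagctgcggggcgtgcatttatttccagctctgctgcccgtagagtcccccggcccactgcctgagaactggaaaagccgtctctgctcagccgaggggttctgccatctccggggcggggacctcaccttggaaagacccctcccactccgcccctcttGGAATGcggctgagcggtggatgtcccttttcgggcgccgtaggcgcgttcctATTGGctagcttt
CCAAT occurs in each of the 3 windows, GGAATG in that of GINS1 only.

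Over the 300 bases from 250 before to 50 after the start, 42 of the 49 genes have an entry in the RefSeq promoter table used here. The letters of an E2F site (TTTCCCGC, TTTGGCGC, TTTCGCGC or TTTGCCGC, both strands) were found in 19 of the 42 (45.2%), against 3.33% of 27305 promoters and 4.44% of 15843 promoters of protein-coding genes. CCAAT was found in 57.1% of the 42 against 35.7% of all promoters, and GGAATG in 7 of the 42 (16.7%) against 14.1%. TTTGAA, the letters of the CHR element of late cell cycle genes, was found in 1 of the 42, that of DBF4, against 15.4%. MCM6 holds the most E2F matches, 4, which overlap in 2 pairs. The 250 bases before its start (chr2:135876444-135876693, minus strand, written along the gene) are shown with E2F and CCAAT letters in capitals.
MCM6: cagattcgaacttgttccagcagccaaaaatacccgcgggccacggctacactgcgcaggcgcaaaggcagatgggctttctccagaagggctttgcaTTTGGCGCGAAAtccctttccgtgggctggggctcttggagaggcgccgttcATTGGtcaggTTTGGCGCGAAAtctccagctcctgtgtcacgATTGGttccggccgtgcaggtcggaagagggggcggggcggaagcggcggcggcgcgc
Each run of 12 capitals joins TTTGGCGC with GCGCGAAA, the same site type read on the other strand. The windows of MCM2, MCM3 and MCM7 also hold E2F letters, as do those of MCM8 and GINS1 after the start, and that of MCM10 holds none. The 19 genes with a match had a median log2 fold change of −0.19 with combination 1 and −0.033 with combination 2, and the 23 without a match −0.16 and −0.059. These matches are descriptions of letters, and binding was not measured.

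Among origin recognition and licensing genes 0 of 9 passed the limma test with either combination. At an unadjusted p under 0.05, 4 were lower with combination 1 and 1 with combination 2, against 7.65% and 5.85% of all genes. With combination 1 all 9 had negative log2 fold changes (median −0.16, from −0.23 to −0.059). In all 3 arrays, 4 of the 9, ORC1, ORC2, CDC6 and GMNN, were lower than with scrambled siRNA, against 10.1% of all genes. CDC6, which loads the MCM ring, had log2 signals of 9.97, 9.91 and 10.0 with scrambled siRNA, 9.74, 9.83 and 9.74 with combination 1 and 9.92, 9.98 and 10.0 with combination 2. It was lower with combination 1 without overlap (log2 fold change −0.19, adjusted p = 0.167, limma) and within the scrambled range with combination 2 (0.0060, adjusted p = 0.975). GMNN, the inhibitor of CDT1, had −0.23 (adjusted p = 0.210) and −0.059, and ORC2 had −0.17 (adjusted p = 0.311) and −0.18 (adjusted p = 0.325).

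CDT1, the other loader, had log2 signals of 7.69, 7.81 and 7.74 with scrambled siRNA, 7.70, 7.65 and 7.62 with combination 1 and 7.67, 7.79 and 7.42 with combination 2. The groups overlapped, and the low combination 2 value came from replicate 3. Its log2 fold changes were −0.090 (adjusted p = 0.661, limma) and −0.12 (adjusted p = 0.626), and without combination 2 replicate 3 the second was −0.013. ORC3, ORC4, ORC5 and ORC6 overlapped the scrambled arrays in both comparisons.

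The 6 genes of the MCM ring, MCM2 to MCM7, were each lower in all 3 combination 1 arrays than in all 3 scrambled arrays. However, 0 of the 6 passed the limma test, and 4 were lower at an unadjusted p under 0.05. Of all genes, 10.1% lay below in this way and 7.65% were lower at an unadjusted p under 0.05. The log2 fold changes of the 6 ran from −0.41 for MCM5 to −0.12 for MCM3, with a median of −0.16. With combination 2 the median of the ring was 0.0013, with 3 genes on either side of 0. MCM2, the proliferation marker, had log2 signals of 9.07, 9.04 and 9.06 with scrambled siRNA, 8.88, 8.83 and 8.79 with combination 1 and 8.83, 8.91 and 8.64 with combination 2. It was the 1 ring gene that lay below the scrambled arrays in all 6 silenced arrays, with log2 fold changes of −0.22 (standard error 0.072, adjusted p = 0.197, limma) and −0.26 (adjusted p = 0.180).

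MCM5, named after its values were seen, had log2 signals of 9.69, 9.70 and 9.73 with scrambled siRNA, 9.37, 9.26 and 9.26 with combination 1 and 9.80, 9.89 and 9.52 with combination 2. Its combination 2 arrays fell on both sides of the scrambled arrays, replicate 3 below and replicates 1 and 2 above. The log2 fold change with combination 1 was −0.41 (standard error 0.092, adjusted p = 0.0788, limma) and with combination 2 it was 0.029 (adjusted p = 0.921). Without combination 2 replicate 3 the adjusted p with combination 1 was 0.0129 (limma), and MCM5 passed. The spread of all groups enters the test, and calls over all genes rose as well, from 563 to 730. The cause of the new call was not tested.

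MCM3 had log2 fold changes of −0.12 (95% interval −0.25 to 0.0034, adjusted p = 0.330, limma) with combination 1 and −0.027 (adjusted p = 0.876) with combination 2. MCM7 had −0.13 (95% interval −0.27 to 0.024, adjusted p = 0.393) and −0.068 (adjusted p = 0.696). Neither difference passed, although the combination 1 arrays of both genes lay below the scrambled arrays. MCM4 and MCM6 had −0.13 and −0.19 with combination 1 and 0.076 and 0.12 with combination 2, both with combination 2 arrays above all combination 1 arrays.

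CDC45, the GINS subunits and the CDC7 kinase had the lowest median of the complexes with combination 1, −0.23, level with RFC and PCNA. Of the 7 genes, 5 lay below the scrambled arrays, against 10.1% of all genes. CDC45 had similar values with both combinations. Its log2 signals were 8.60, 8.49 and 8.54 with scrambled siRNA, 8.35, 8.28 and 8.19 with combination 1 and 8.28, 8.26 and 8.11 with combination 2, all 6 silenced arrays below the scrambled ones. The log2 fold changes were −0.27 (adjusted p = 0.114, limma) and −0.33 (standard error 0.068, adjusted p = 0.0905), the latter the largest decrease of the 49 with combination 2. They differed by −0.055 (95% interval −0.21 to 0.10).

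The GINS subunits differed among themselves. GINS4 had log2 signals of 7.95, 7.89 and 7.92 with scrambled siRNA, 7.70, 7.60 and 7.42 with combination 1 and 7.90, 7.96 and 7.98 with combination 2, a pattern like that of GINS1, with log2 fold changes of −0.35 (adjusted p = 0.0702, limma) and 0.025 (adjusted p = 0.917). GINS2 had −0.23 (adjusted p = 0.0726) and −0.089, below the scrambled arrays with both combinations. GINS3 had −0.057 and 0.051. CDC7 had −0.16 and 0.0026, and its activator DBF4 −0.15 and −0.13, neither passing the test.

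The polymerase genes varied among themselves, with 0 of 12 passing the limma test. At an unadjusted p under 0.05, 4 were lower with combination 1, and 1 was lower and 1 higher with combination 2. Of all genes, 7.65% were lower with combination 1. With combination 2, 5.85% of all genes were lower and 2758 of 37201 higher. The primase subunit PRIM1 had log2 signals of 8.45, 8.43 and 8.34 with scrambled siRNA, 8.04, 8.10 and 8.08 with combination 1 and 8.12, 8.09 and 8.33 with combination 2. All 6 silenced arrays lay below the scrambled ones, replicate 3 of combination 2 only just, and the log2 fold changes were −0.33 (standard error 0.072, adjusted p = 0.0727, limma) and −0.23 (adjusted p = 0.244). POLA1, the catalytic subunit of polymerase alpha, had −0.28 (adjusted p = 0.141) and −0.029, PRIM2 −0.21 and −0.024, and POLA2 −0.028 and 0.051. The median of these 4 was −0.24 with combination 1.

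The delta and epsilon enzymes had medians near 0 with combination 1, −0.053 and 0.0068. POLD4, the small subunit of polymerase delta, had the opposite sign from most of the machinery. Its log2 signals were 8.68, 8.50 and 8.57 with scrambled siRNA, 8.78, 8.73 and 8.72 with combination 1 and 8.93, 8.93 and 8.62 with combination 2, higher in all 3 arrays of combination 1 and in 2 of 3 of combination 2. The log2 fold changes, 0.16 (adjusted p = 0.429, limma) and 0.24 (adjusted p = 0.316), did not pass. POLE2, the second subunit of polymerase epsilon, had −0.27 (adjusted p = 0.116) and −0.054, whereas the catalytic subunits POLD1 and POLE had −0.055 and −0.068 with combination 1. The histone-fold subunits POLE3 and POLE4 had 0.083 and 0.081.

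All 6 genes of the clamp and its loader lay below the scrambled arrays with combination 1 (median −0.23), against 10.1% of all genes. With limma 0 of 6 passed in either comparison. At an unadjusted p under 0.05, 5 were lower with combination 1 and 1 with combination 2, against 7.65% and 5.85% of all genes. RFC5 had log2 signals of 8.90, 8.87 and 8.77 with scrambled siRNA, 8.56, 8.63 and 8.44 with combination 1 and 8.60, 8.63 and 8.63 with combination 2. It was lower in all 6 silenced arrays, with log2 fold changes of −0.30 (standard error 0.064, adjusted p = 0.0665, limma) and −0.23 (adjusted p = 0.190). The other loader subunits had log2 fold changes from −0.29 for RFC3 to −0.096 for RFC2 with combination 1.

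PCNA had log2 signals of 10.79, 10.77 and 10.74 with scrambled siRNA, 10.60, 10.59 and 10.54 with combination 1 and 10.64, 10.66 and 10.91 with combination 2. Combination 2 thus held 2 arrays below the scrambled range and 1, replicate 3, above it. The log2 fold changes were −0.19 (adjusted p = 0.275, limma) and −0.033 (adjusted p = 0.888), and the latter was −0.12 (adjusted p = 0.313) without replicate 3. For the complex, the combination 2 median went from −0.046 to −0.14 without that array.

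Of the genes that act on single-stranded DNA and at the end of the process, 0 of 6 lay apart from the scrambled arrays with combination 1. Of all genes, 10.1% lay below and 5870 of 37201 above. With combination 1 the RPA subunits had log2 fold changes from −0.14 to −0.080 and overlapped the scrambled arrays. With combination 2, RPA3 again overlapped them (log2 fold change −0.025, adjusted p = 0.926, limma). RPA2 and RPA1 did not, although neither passed the test. RPA2 had log2 signals of 7.63, 7.69 and 7.54 with scrambled siRNA and 7.37, 7.34 and 7.43 with combination 2, below without overlap (log2 fold change −0.24, adjusted p = 0.160, limma), while RPA1 had 9.29, 9.21 and 9.23 against 9.40, 9.45 and 9.32, above without overlap (0.15, adjusted p = 0.331). FEN1 had −0.069 and −0.078, LIG1 −0.024 and −0.026 and DNA2 −0.13 and 0.13, and the arrays of these 3 overlapped in both comparisons. The interval for LIG1 with combination 1 ran from −0.16 to 0.12.

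**Figure D3:**
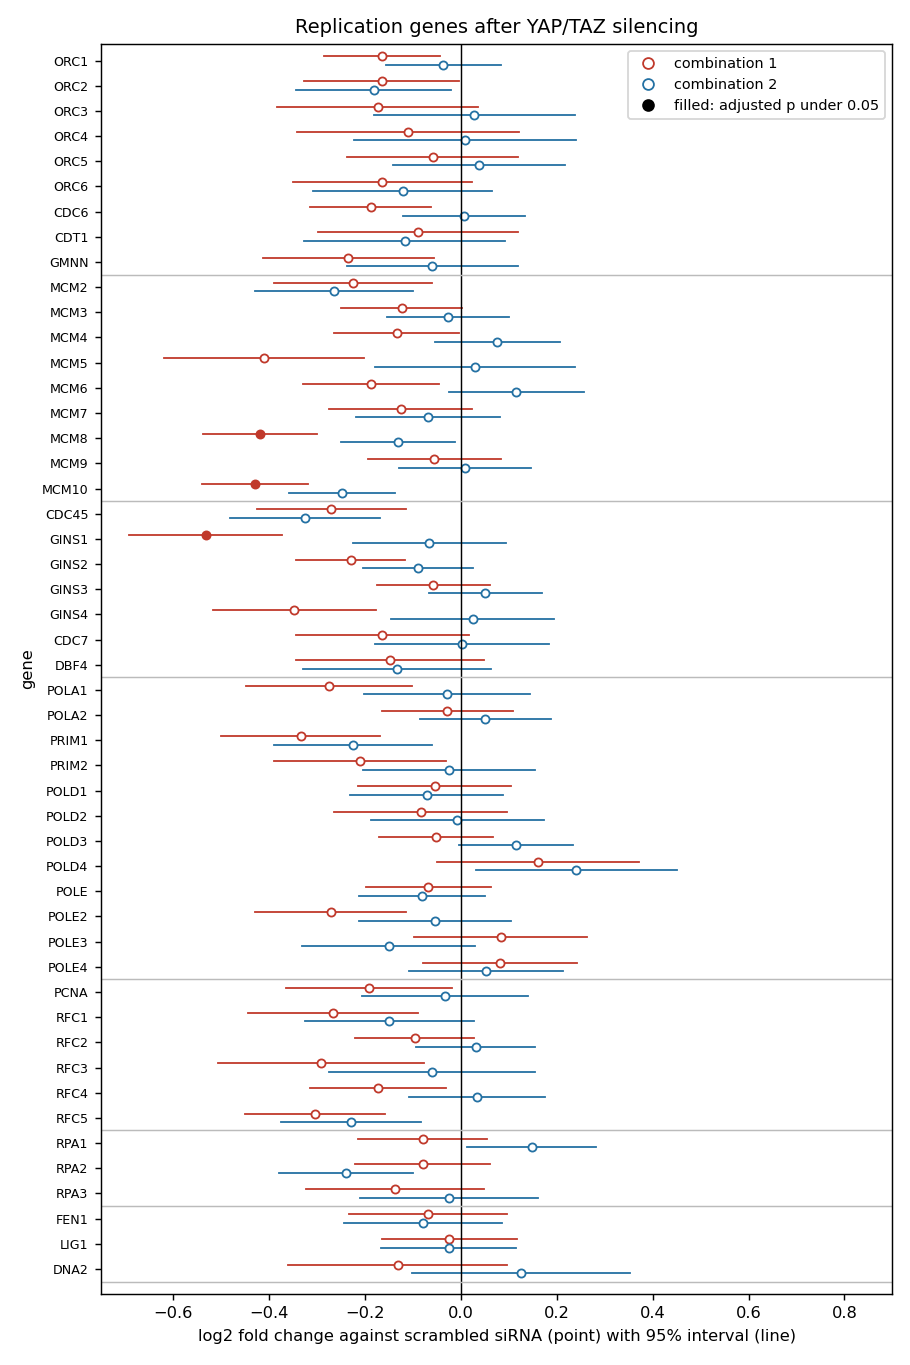
Log2 fold change (horizontal axis) of the 49 replication genes against scrambled siRNA with its 95% interval from limma, in red for combination 1 and in blue for combination 2. Filled points have an adjusted p under 0.05, which holds for MCM8, MCM10 and GINS1 with combination 1 and for 0 genes with combination 2.

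With combination 2 the differences were smaller. With limma 0 of 49 genes passed the test, where 0.446% of all genes were called lower. At an unadjusted p under 0.05, 8 were lower and 2 higher, where 5.85% of all genes were lower and 2758 of 37201 higher. Of the 49, 9 lay below the scrambled arrays in all 3 arrays and 3 above. Of all genes, 6.5% lay below and 4300 of 37201 above. Of the 49, 30 had a negative log2 fold change, and the median was −0.029 against 0.016 over all genes. The 9 below were MCM2, MCM8, MCM10, CDC45, GINS2, PRIM1, POLE, RFC5 and RPA2. In the fit of protein-coding genes only, MCM10, CDC45 and RPA2 passed, where 4.02% of those genes passed in either direction. For the mean of both combinations, MCM8 (−0.27, adjusted p = 0.0236) and MCM10 (−0.34, adjusted p = 0.00635) passed, both lower, against 0.823% of all genes. When an array was left out, the MCM10 call held in 8 of 9 fits and the MCM8 call in 1 of 9 (adjusted p up to 0.125 over 19 alternatives). The 2 comparisons with scrambled siRNA share the scrambled arrays.

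The combinations were also compared directly. GINS1 was higher with combination 2 than with combination 1 by a log2 value of 0.47 (95% interval 0.31 to 0.62, adjusted p = 0.0400, limma), and it was the 1 gene of 49 that passed, against 0.333% of all genes in either direction. That call was lost in each of the 9 fits that left out an array, with the difference between 0.42 and 0.49 over all alternatives. Of the 49, 22 were higher in all 3 combination 2 arrays than in all 3 combination 1 arrays. Lower without overlap were 2, POLE3 and RPA2. Of all genes, 8.59% were higher and 2419 of 37201 lower in this way. Differences that did not pass included 0.44 for MCM5 (adjusted p = 0.153), 0.37 for GINS4 (adjusted p = 0.131), 0.30 for MCM6 (adjusted p = 0.139) and 0.29 for MCM8 (adjusted p = 0.0903). Over the 49 the median difference was 0.12, and over all genes −0.0023.

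**Figure D4:**
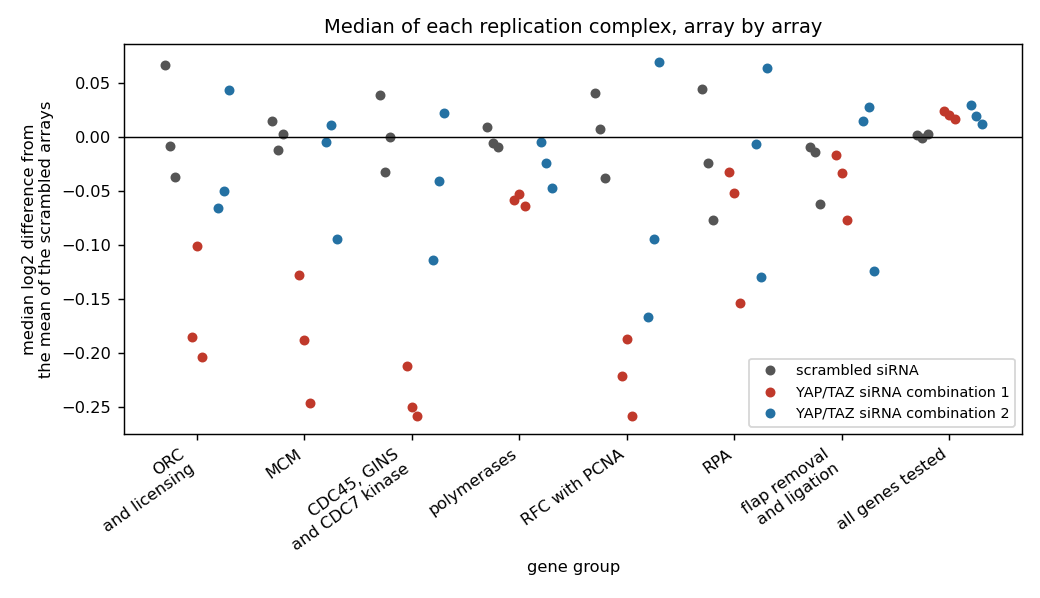
Median over the genes of each complex of the log2 difference from the scrambled mean (vertical axis), 1 point per array, for the 7 groups of replication genes and for all genes. With combination 1 the medians lie from −0.26 to −0.10 in the 3 groups up to the helicase partners and in RFC with PCNA, and nearer 0 in the polymerases and flap genes. The all-gene medians lie from −0.0015 to 0.029.

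Array by array, the median difference of the 49 genes from the scrambled mean was −0.15, −0.12 and −0.20 in the combination 1 arrays, −0.050, −0.032 and −0.0050 in the combination 2 arrays, and 0.035, −0.0093 and −0.012 in the scrambled arrays. Combination 1 replicate 3 was the lowest of its group for 34 of the 49 genes. Combination 2 replicate 3 was the highest of its group for 28 of the 49, yet in the MCM ring its median, −0.14, was the lowest of its group, beside −0.0024 and 0.047. Without it, 6 genes passed with combination 1 (MCM5, GINS2 and PRIM1 besides the 3 above) while the calls over all genes rose from 563 to 730 (1.96%), 0 passed with combination 2, and the median over the 49 was −0.036 with combination 2. In such bulk cultures fewer cells carrying these RNAs and less RNA per cell cannot be told apart.

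Interferon-induced genes moved with combination 1 as well. Of 17 measured genes of the type I interferon response (18 listed), 17 were called higher with combination 1 by limma. Of all genes, 253 of 37201 were. The median log2 fold change of the 17 was 1.67 (array medians 1.63 to 1.75). With combination 2, 1 of the 17 was called higher, where 113 of 37201 genes were. Yet 16 of them had positive log2 fold changes, where 20387 of 37201 genes did. Above all scrambled arrays lay 11 of the 17, against 4300 of 37201 genes. The median of the 17 with combination 2 was 0.46 (array medians 0.24 to 0.51). The group with the lower replication signals was thus the group with the higher interferon signals, and the part of the interferon response in the result was not tested. The summed signals of hepatocyte, fibroblast and leukocyte markers, as log2 values, ranged from 7.34 to 7.54, from 8.39 to 8.54 and from 7.36 to 7.39 in the scrambled arrays, from 7.45 to 7.52, from 8.54 to 8.68 and from 7.34 to 7.45 with combination 1, and from 7.49 to 7.52, from 8.50 to 8.64 and from 7.40 to 7.52 with combination 2.

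Genes that work with the machinery were listed in 4 further groups, of which 58 of 59 were measured. By limma over all genes, 6 of the 58 were called lower and 1 higher with combination 1 (median −0.18). Of all genes, 0.833% were called lower and 253 of 37201 higher. Of the 58, 52 had negative log2 fold changes and 42 lay below all scrambled arrays. Of all genes, 16834 of 37201 had negative log2 fold changes and 10.1% lay below in this way. With combination 2, 2 were called lower (median −0.055), where 0.446% of all genes were. Negative log2 fold changes were seen for 45 of the 58, against 16812 of 37201 genes. Among 22 origin firing and fork partners, TOP2A, the topoisomerase that untangles copied DNA, had a log2 fold change of −0.73 for combination 1 (adjusted p = 0.00456), and CLSPN, the fork protein claspin, −0.36 (adjusted p = 0.0318). With combination 2 they had −0.32 and −0.063. Among 9 nucleotide supply genes, RRM1, the large subunit of ribonucleotide reductase, had −0.36 for combination 1 (adjusted p = 0.0439).

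SAMHD1, which degrades deoxynucleotides and is known to be induced by interferon, had log2 signals of 9.14, 9.40 and 9.33 with scrambled siRNA, 10.25, 10.25 and 10.24 with combination 1 and 9.54, 9.69 and 9.70 with combination 2. It rose with combination 1 (log2 fold change 0.96, adjusted p = 6.96e-04, limma), with combination 2 it had 0.36 (adjusted p = 0.102), and the difference between combinations passed (−0.60, adjusted p = 0.0206). It opposed the other nucleotide supply genes, of which 8 of 8 had negative log2 fold changes with combination 1. The 11 genes of chromatin assembly at the fork gave 0 calls in either comparison (limma). At an unadjusted p under 0.05, 4 were lower with combination 1 and 2 with combination 2, against 7.65% and 5.85% of all genes.

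Among 16 S-phase regulators, 3 were called lower with combination 1, against 0.833% of all genes. These were the kinase CDK2 (log2 fold change −0.39, adjusted p = 0.0179, limma) and the pocket proteins RB1 (−0.48, adjusted p = 0.0288) and RBL2 (−0.54, adjusted p = 0.0109). With combination 2 the calls were CDC25A and SKP2, where 0.446% of all genes were called lower. With combination 1 both also lay below all scrambled arrays, SKP2 only just (9.953 against 9.955 for the nearest arrays). Neither passed there (CDC25A −0.33, adjusted p = 0.0639, SKP2 −0.15, adjusted p = 0.302, limma). CDC25A, the phosphatase that activates CDK2, had log2 signals of 8.57, 8.46 and 8.31 with scrambled siRNA, 8.11, 8.12 and 8.13 with combination 1 and 7.50, 7.57 and 7.55 with combination 2 (log2 fold change with combination 2 −0.91, adjusted p = 0.00117). SKP2, the ubiquitin ligase subunit that removes the CDK inhibitor p27, had 10.00, 9.96 and 10.05, then 9.95, 9.86 and 9.75, and 9.01, 9.01 and 9.03 (−0.98, adjusted p = 5.45e-04). For both the combinations differed (CDC25A −0.58, adjusted p = 0.0130, and SKP2 −0.83, adjusted p = 0.00127), and RBL2 differed in the other direction (0.50, adjusted p = 0.0389). For CDK2 (0.36, adjusted p = 0.0646) and RB1 (0.45, adjusted p = 0.0961) the difference did not pass.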

How the data were processed

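RNA was measured on Clariom D arrays. As deposited, values are on the log2 scale, made by the authors with RMA (background correction, quantile normalization) with custom CDF version 22. The RMA version and the genome build are not given in the sources used here. RMA sets all arrays to 1 distribution, so a change in total RNA would not be seen. Sorted, 8 arrays hold identical values, and scrambled replicate 1 is stored with more decimals. Of 39334 probe sets, 37201 with 1 gene symbol were tested and 2133 left out. Of those tested, 37154 matched the gene reference.

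A model of 3 group means on 9 arrays was fitted with limma 3.58.1 in R 4.3.3 (prior degrees of freedom 2.56), with Benjamini-Hochberg adjustment over all genes, a threshold of 0.05 and 4 contrasts. The steps were tested on simulated data. Named were the members called in any contrast, for each complex the member with the smallest p per combination, MCM2, MCM3, MCM7, CDT1, GMNN, CDC6, PCNA, the siRNA targets, and up to 4 called genes of each further list. MCM4, MCM6, GINS3 and others outside this rule are given for completeness of their complex and were chosen after their values were seen. Members and lists were chosen with earlier results of these data known. The alternatives tried were centring on the median, another quantile normalization, dropping the dimmest 40%, other variance models, a replicate block, weights per array, other sets of probe sets or arrays, rounding, and leaving out each array. Motif letters were searched in RefSeq promoters. The number of arrays limits the precision.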

Additional observations from a re-analysis of the deposited data

Results flagged for a closer look

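GINS1 passed the test of the difference between the 2 siRNA combinations in the main fit. Its log2 signal was higher with combination 2 than with combination 1 by 0.47 (adjusted p = 0.0400, limma), in 3 of 3 arrays against 3 of 3 without overlap. The adjusted p ran from 0.00433 to 0.193 over 20 alternatives, of which 8 kept the call. Of the 9 fits that left out an array, 0 kept it.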

How the results depend on the processing

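No result changed direction while called. With 3 replication genes called for combination 1, the count was 8 without the 40% dimmest probe sets, 8 with a trend and robust variances, 8 with weights per array, 11 over protein-coding genes and 1 with the replicate block (MCM10). Calls over all genes changed alongside, from 563 to 1067, 823, 981, 1095 and 206. For the 49, leaving out each array gave 2 to 6, the 6 without combination 2 replicate 3. MCM10, MCM8 and GINS1 were among the genes called in each of these fits except that GINS1 was lost without scrambled replicate 1 and MCM8 and GINS1 with the block. The count of 0 for combination 2 became 2, 1, 1 and 3 in the same 4 settings, 1 with an ordinary linear model and stayed 0 with the block. Calls over all genes went from 279 to 539, 425, 423 and 733 in those 4 settings. They were 275 with the ordinary linear model and 48 with the block. For the mean of both combinations the count of 2 became 6, 6, 6 and 8, 0 with the block, and 0 to 5 when an array was left out. Its calls over all genes went from 595 to 1133, 876, 957 and 1215, and to 224 with the block. For the difference of the combinations the count of 1 became 2, 2, 2 and 5, and 0 with an ordinary linear model, with the 6 arrays compared alone and with the block, and 0 to 1 when an array was left out (MCM5 in place of GINS1 without combination 2 replicate 3). The calls over all genes for this difference went from 124 to 226, 187, 177 and 340. With the ordinary linear model, the 6 arrays alone and the block they were 73, 54 and 42. The median over the 49 genes with combination 1, −0.16, ran from −0.18 to −0.12 when an array was left out, with −0.13 without scrambled replicate 1 and −0.12 without combination 1 replicate 3. The order of the 4 settings is dim probe sets, trend, weights, protein-coding genes. The cause of these changes in count was not tested.

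Arrays with the same replicate number did not deviate together (correlations from −0.18 to 0.051 in 9 pairs, against −0.11 to 0.14 in 18 pairs of different number). The labels do not say whether equal numbers pair samples, and small correlations after normalization cannot exclude pairing. With 3 arrays per group, the median standard error over the 49 genes was 0.070 on the log2 scale.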
